A study of Mus musculus with 52 samples.

Results

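The Hox genes of the mouse were followed here by cluster and by position in 8 tissues of wild-type mice and of mice without the Tug1 locus. Members were all protein-coding genes whose symbol is Hox, a cluster letter from a to d and a number. The rule gave 39 genes of the 20138 protein-coding genes in both tables, with 11 in HoxA, 10 in HoxB, 9 in HoxC and 9 in HoxD. Tug1 encodes a long noncoding RNA. In Tug1-/- mice (allele Tug1_tm1.1Vlcg) the body of the gene was exchanged for a lacZ cassette and the promoter and first exon were kept. Testes came from 4 wild-type (C57BL/6J, no Neo), 4 Tug1-/- and 3 rescue males, the last 2 groups labelled C57BL/6J with Neo and LacZ. Rescue males were Tug1-/- with tg(Tug1), a Tug1 transgene that integrated at random, and CAGs-rtTA3, a transactivator made from a broadly active promoter. It switches the transgene on under doxycycline, which was given in the diet from the plug date. Spleen, liver, heart, eyes and MEFs (mouse embryonic fibroblasts, primary cultures at passage 2 from male littermate embryos) had 3 samples per genotype, and prostate had 3 wild-type and 2 Tug1-/- samples. These tissues were on a mixed C57BL/6J/129S6 background without Neo. All samples were male, and no age is in the labels. Brain libraries came from outside the series, and their number is not in the labels. Testes of F1 hybrids, 6 of the 52 samples, were not analysed here.

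Hox genes encode transcription factors with a homeodomain, the part that binds DNA. They sit in 4 clusters, and a number names the paralog group, so that Hoxa5, Hoxb5 and Hoxc5 descend from the same ancestral gene. Low numbers lie at one end of a cluster and are expressed from anterior levels of the embryo, and high numbers lie at the other end and are expressed in posterior trunk, limb tips and the urogenital tract. Polycomb complexes keep the genes silent where they are not used. PRC2 places methyl groups on lysine 27 of histone H3, and PRC1 reads that mark and compacts the chromatin, while Trithorax proteins of the Kmt2 family oppose them.

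The tables give only the mean of each group in TPM (a transcript level corrected for gene length and library size), so the spread between animals is unknown and no test could be run. A difference below is log2(mean TPM + 0.1) of the second group minus the first. A gene is called past 1.5-fold when that difference is at least 0.585 in size and the mean of both groups is at least 1 TPM. Where the tables give a mean normalised count, an exact 95% interval of the ratio was computed from the reads behind it. It covers counting error only and takes in no spread between animals. In bulk tissue, fewer cells of a type and less RNA per cell cannot be told apart. Tug1 itself ranged from 10.1 to 57.6 TPM in wild type and from 0.00832 to 0.885 TPM in Tug1-/- over the 8 tissues, and stood at 1.61 TPM in rescue testes. Defining markers of each labelled tissue were present in wild type, summed from 2483 TPM for the 4 lymphocyte markers of spleen to 122356 TPM for the 4 liver markers.

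In GRCm38 coordinates, HoxA spans chr6:52155590-52260880 on the minus strand. HoxB spans chr11:96194316-96368256, HoxC chr15:102921103-103036852 and HoxD chr2:74668310-74765142, all on the plus strand. HoxB shares its chromosome with Tug1 (chr11:3639785-3649673), 92.5 Mb away. In the annotation, 21 of the 39 members overlap another gene, and 14 overlap one on the opposite strand. The kit used does not mark strand, so reads of such pairs cannot be told apart.

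Many Hox promoters carry dense CpG dinucleotides, the kind of sequence where Polycomb complexes gather in cells that do not use the gene. Promoter windows of 300 bases were matched for 22 Hox genes (24 windows, RefSeq, GRCm38). HoxC was matched only at Hoxc4. Some windows lay far from the gene start used elsewhere here, such as those of Hoxc4 (15461 bases) and Hoxd4 (10049 bases). They held a median of 14.5 CpG, against 7.0 over all 32544 windows, and 45.8% were CpG-rich (at least 50% G and C, and an observed over expected CpG of at least 0.6), against 33.7% of all windows. The letters TATAAA, searched on both strands, stood in 16.7% of the Hox windows and 13.6% of all windows. TGATNNAT, a form of the joint Pbx and Hox site, stood in 16.7% (4 of 24 windows) and 8.8%. The 250 bases upstream of 3 start sites are shown because these genes were past 1.5-fold below, Hoxb8 in testes, Hoxa5 in spleen and Hoxd13 in MEFs. CpG dinucleotides are in capitals. The Hoxb8 stretch holds 12, the Hoxa5 stretch 28 and the Hoxd13 stretch 31. The RefSeq start of Hoxd13 lies 85 bases upstream of the start in the tables.
Hoxb8 (chr11:96281655-96281904, plus strand): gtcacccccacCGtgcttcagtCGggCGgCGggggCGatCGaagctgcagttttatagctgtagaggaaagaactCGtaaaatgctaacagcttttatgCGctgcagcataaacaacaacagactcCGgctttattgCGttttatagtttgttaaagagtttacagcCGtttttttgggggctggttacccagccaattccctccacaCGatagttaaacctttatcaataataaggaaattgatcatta
Hoxa5 (chr6:52204588-52204837, minus strand): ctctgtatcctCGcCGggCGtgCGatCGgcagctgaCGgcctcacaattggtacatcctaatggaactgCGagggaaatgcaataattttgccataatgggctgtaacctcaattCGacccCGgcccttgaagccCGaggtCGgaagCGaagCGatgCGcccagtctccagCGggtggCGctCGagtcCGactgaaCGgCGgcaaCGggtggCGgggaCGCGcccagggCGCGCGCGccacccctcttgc
Hoxd13 (chr2:74667975-74668224, plus strand): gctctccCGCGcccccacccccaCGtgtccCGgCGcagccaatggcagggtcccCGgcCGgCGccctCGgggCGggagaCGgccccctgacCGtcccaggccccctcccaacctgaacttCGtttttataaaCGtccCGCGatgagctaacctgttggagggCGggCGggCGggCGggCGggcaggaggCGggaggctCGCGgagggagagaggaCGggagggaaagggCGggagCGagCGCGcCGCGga

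The clusters also hold microRNAs, short RNAs that repress transcripts with sites matching their seed (bases 2 to 8). They fall into families by shared seed. miR-196 is made from HoxA, HoxB and HoxC, and miR-10 from HoxB and HoxD. The 4 main mature forms are shown from RefSeq with the seed in capitals, because hairpins of both families lie in HoxB, the cluster that differed most in testes.
mmu-miR-196a-5p: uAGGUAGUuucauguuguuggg
mmu-miR-196b-5p: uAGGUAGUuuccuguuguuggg
mmu-miR-10a-5p: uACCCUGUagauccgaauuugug
mmu-miR-10b-5p: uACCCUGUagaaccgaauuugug

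A match to the miR-196 seed, ACTACCT in the transcript, occurred in the 3′ UTR of 9 of the 39 Hox genes (23.1%), among them Hoxa4, Hoxa5, Hoxa7, Hoxa9, Hoxb1, Hoxb6, Hoxb7 and Hoxc8. The share over 21007 genes was 6.1%, at a like median length of 966 bases for Hox genes and 961 for all. A match to the miR-10 seed, ACAGGGT, occurred in 4 Hox genes (10.3%, against 12.5% of all). Hoxb8 has no exact seed match but the most complete pairing of all. Of 20900 3′ UTRs compared with miR-196a-5p without gaps, that of Hoxb8 paired best, with 21 of 22 bases in Watson-Crick pairs and 1 G:U pair. The next genes reached 17. The Hoxb8 site is shown beside that of Hoxa7, which has the exact seed match and 14 bases paired, with Watson-Crick pairs in capitals.
Hoxb8 site (chr11:96284888-96284909, plus strand): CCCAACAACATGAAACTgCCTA
Hoxa7 site (chr6:52215210-52215231, minus strand): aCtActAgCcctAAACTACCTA

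Each tissue had its own span of the clusters in wild type. MEFs used nearly all of them, prostate the posterior part, and brain and spleen the anterior and central part. Of the 39 genes, 34 reached 1 TPM in MEFs, 22 in prostate, 16 in testes, 8 each in brain and spleen, and 0 in eyes, heart and liver. The summed level of all Hox genes was 817 TPM in prostate, 520 TPM in MEFs, 189 TPM in testes, 30.2 TPM in spleen and 24.1 TPM in brain. It was 6.37 TPM in heart, 2.61 TPM in liver and 0.815 TPM in eyes. Genes at very low levels drop out of a table altogether, so 38 members were listed in testes and in MEFs, 31 in prostate, 24 in spleen, 23 in heart, 21 in brain, 14 in liver and 8 in eyes.

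**Figure D1:**
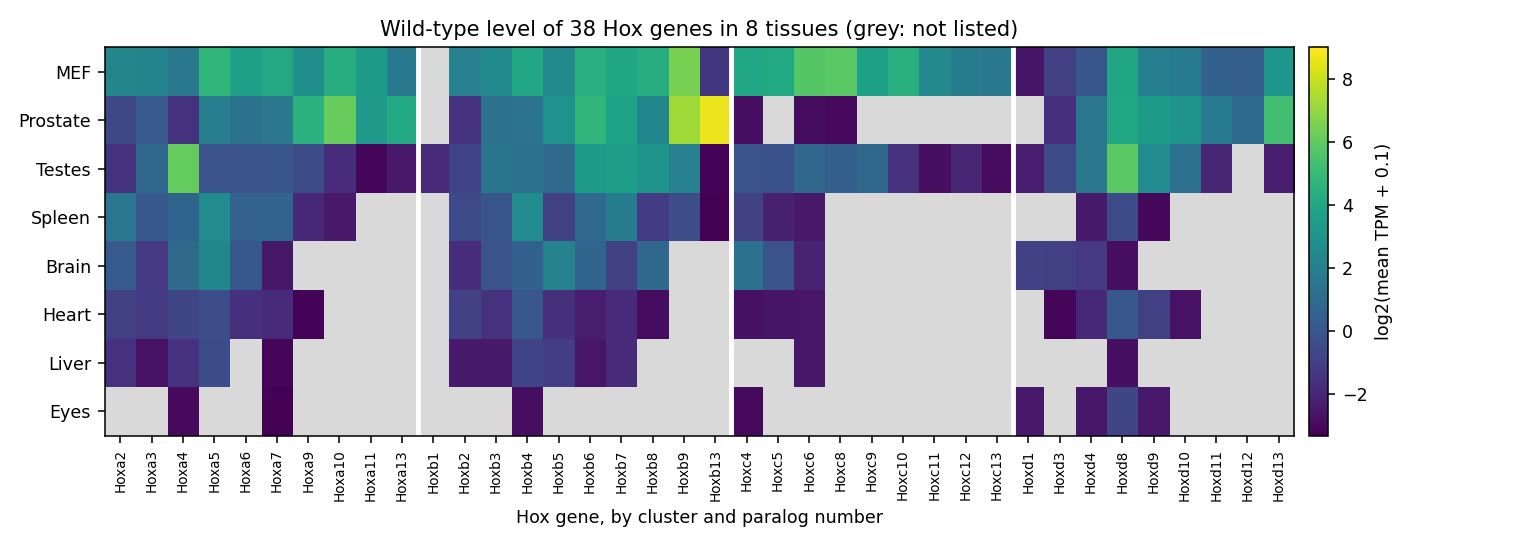
Wild-type level of 38 of the 39 Hox genes (columns, by cluster and paralog number) in 8 tissues (rows), as log2(mean TPM + 0.1), with genes not listed in grey. MEFs fill nearly the whole row, prostate is bright at the posterior end of HoxA, HoxB and HoxD and grey or dark over HoxC, and brain, spleen, heart and liver are listed mainly up to paralog group 9.

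MEFs and prostate held the most Hox RNA but from different places. In MEFs, HoxC gave 36.8% of it (191 TPM) and HoxB 34.3%, and all 9 HoxC genes and all 11 HoxA genes reached 1 TPM. The highest were Hoxb9 at 87.7 TPM, Hoxc8 at 56.98 TPM and Hoxc6 at 53.9 TPM, genes of the trunk. In HoxB the genes from Hoxb2 to Hoxb9 reached 1 TPM, and in HoxD those from Hoxd8 to Hoxd13. In prostate, HoxC summed to 0.0988 TPM, with 3 of 9 genes listed. Prostate instead had 394.6 TPM of Hoxb13, a gene used as a marker of prostate epithelium, with 149.0 TPM of Hoxb9 and 69.2 TPM of Hoxa10. Genes of paralog groups 9 to 13 made up 89.0% of the Hox RNA in prostate, 37.2% in MEFs and 8.17% in testes. All 11 posterior genes listed in prostate passed 1 TPM, where its spans ran from Hoxa5 to Hoxa13, Hoxb3 to Hoxb13 and Hoxd4 to Hoxd13.

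In testes, a pair of genes stood far above the rest. Hoxa4, expressed in male germ cells, was at 67.3 TPM, while its neighbours Hoxa3 and Hoxa5 were at 1.63 and 0.784 TPM. Hoxd8 was at 56.9 TPM and Hoxd9 at 6.03 TPM. Hoxd8 lies over the antisense gene Hoxd3os1, which was at 83.5 TPM, and the unstranded reads do not separate them. The third highest was Hoxb7 at 11.4 TPM, in a run from Hoxb3 to Hoxb9 in which all 7 genes passed 1 TPM. HoxC reached 1 TPM between Hoxc6 and Hoxc9, and HoxD between Hoxd4 and Hoxd10.

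Paralog groups 4 to 8 gave most Hox RNA in every tissue but prostate (10.5%). Their share was highest for testes (88.6%) and brain (85.6%), between 78.5% and 79.9% for spleen, liver and eyes, and lower for heart (66.4%) and MEFs (58.0%). In brain the highest were Hoxa5 at 4.93 TPM, Hoxb5 at 4.51 TPM and Hoxc4 at 2.30 TPM, and the outermost genes at 1 TPM or more were Hoxa2 and Hoxa5 in HoxA and Hoxb4 and Hoxb8 in HoxB. In spleen they were Hoxa5 at 6.11 TPM, Hoxb4 at 5.96 TPM, a gene known for its part in blood stem cells, and Hoxb7 at 3.68 TPM, with outermost genes Hoxa2 and Hoxa7 and Hoxb4 and Hoxb7. Heart was led by Hoxd8 at 0.913 TPM, Hoxb4 at 0.912 TPM and Hoxa5 at 0.644 TPM. Liver was led by Hoxa5 at 0.602 TPM, Hoxb4 at 0.458 TPM and Hoxb5 at 0.378 TPM. Eyes had Hoxd8 at 0.494 TPM, and the next, Hoxd1 and Hoxd9, were at 0.0819 and 0.0817 TPM. Hoxa4, Hoxa7, Hoxb4 and Hoxd8 were the members listed in all 8 tissues.

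The comparison of Tug1-/- with wild type asks what changes when the locus is lost. In testes, a block of HoxB genes was lower in Tug1-/-, while the sums of the other 3 clusters were closer between groups. Summed HoxB was 41.1 TPM in wild type, 16.4 TPM in Tug1-/- and 6.90 TPM in rescue. HoxA was at 72.9, 70.8 and 77.9 TPM, HoxC at 6.56, 6.44 and 5.22 TPM, and HoxD at 68.9, 61.4 and 56.8 TPM in the same order. Hoxa4 (67.3, 65.5 and 73.85 TPM) made up most of HoxA and Hoxd8 (56.9, 50.1 and 50.1 TPM) most of HoxD. Those sums therefore say little about the other members of the 2 clusters, some of which were lower too, as given below. Of 16 Hox genes with a mean of at least 1 TPM, 8 were past 1.5-fold (7 lower, 1 higher). Over all 15047 protein-coding genes tested in that comparison the share was 4.78%. The median difference of the 16 was -0.37 and that of all genes 0.04.

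Within HoxB, Hoxb6, Hoxb7 and Hoxb8 differed most among the genes at 1 TPM or more. Hoxb6 was at 10.4 TPM in wild type, 2.96 TPM in Tug1-/- and 1.005 TPM in rescue. Hoxb7 was at 11.4, 3.56 and 1.70 TPM. Hoxb8 was at 8.10, 2.62 and 0.0651 TPM. These 3 neighbours were lower by 1.59 to 1.78 on the log2 scale in Tug1-/-, and lower again in rescue. Hoxb9 was at 3.97, 2.05 and 0.631 TPM, and Hoxb5 at 1.76, 1.01 and 0.739 TPM. Hoxb4, past 1.5-fold against wild type only in rescue, was at 2.27, 1.59 and 0.395 TPM. Hoxb3, nearer the anterior end, was at 2.66, 2.27 and 2.07 TPM and stayed inside 1.5-fold in each comparison. The rank correlation of paralog number with the difference over the 7 genes was -0.64, given as a description of genes that share libraries and lie side by side. Under 1 TPM, Hoxb1 was at 0.185, 0.0324 and 0.0187 TPM and Hoxb2 at 0.463, 0.290 and 0.199 TPM, and Hoxb13 reached at most 0.0744 TPM. The antisense gene Hoxb5os, which overlaps Hoxb5 and Hoxb6, was at 22.1, 19.8 and 21.5 TPM, and its reads cannot be told apart from theirs by strand.

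The miR-196a hairpin gene Mir196a-1, which lies upstream of Hoxb9 in HoxB, had the same order at 6.44, 2.47 and 1.501 TPM. Mir10a, beside Hoxb4, was at 2.33, 1.54 and 0.297 TPM. These are reads over hairpins in libraries of polyadenylated RNA, and the mature microRNAs printed above were not measured. Across tissues, wild-type Hoxb8 and Mir196a-1 were at 20.3 and 72.9 TPM in MEFs, 4.89 and 253 TPM in prostate and 0.350 and 3.53 TPM in spleen. TPM is corrected for gene length, so few reads over a short hairpin give a high value. The levels of Hoxb8 and Mir196a-1 are therefore not comparable with each other.

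Outside HoxB, 3 genes were past 1.5-fold in Tug1-/- testes. Hoxd4 was at 2.85 TPM in wild type, 1.197 TPM in Tug1-/- and 0.859 TPM in rescue. Hoxc8 was at 1.26, 0.749 and 0.743 TPM. Hoxd10 was the one that was higher in Tug1-/-, at 2.17, 4.43 and 2.23 TPM, with rescue at the wild-type level. Below 1 TPM, its paralog Hoxa10 (0.195, 0.571 and 0.0415 TPM) and Hoxa11 (0.0141, 0.187 and 0.00914 TPM) were also highest in Tug1-/-. Hoxa5 (0.784, 0.361 and 0.207 TPM) and Hoxd3 (0.609, 0.207 and 0.106 TPM) had the order of HoxB. Hoxa4 and Hoxd8, the top genes, were at 65.5 and 50.1 TPM in Tug1-/- and differed by -0.04 and -0.18 from wild type.

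Genes of other tissues differed between the same testes. Of 7 markers of epididymis and vas deferens, the ducts that leave the testis, 6 were lower and 1 higher past 1.5-fold in Tug1-/-, and 7 lower in rescue against wild type. Their sum was 2898 TPM in wild type, 809 TPM in Tug1-/- and 8.86 TPM in rescue. That sum had the order of HoxB, but Crisp1 made up most of it in Tug1-/-. Lcn8, Rnase10, Adam7 and Spink12 also fell at each step, though Rnase10 was nearly level from Tug1-/- to rescue (7.93 and 7.79 TPM). Lcn5 and Lcn9 were lowest in Tug1-/-, and Crisp1 was highest there. Lcn5 was at 680, 0.0155 and 0.132 TPM, Adam7 at 326, 39.8 and 0.0193 TPM, and Crisp1 at 427, 760 and 0.348 TPM. The 4 epithelial markers summed to 128, 76.5 and 57.6 TPM. The 4 skeletal muscle markers summed to 4.08, 33.1 and 3.72 TPM, the 5 peritubular and smooth muscle markers to 108.7, 151.7 and 125.1 TPM, the 5 kidney and collecting duct markers to 8.43, 17.1 and 10.2 TPM and the 5 Leydig cell markers to 483, 742 and 639 TPM. These 4 sums, like Hoxd10, were highest in Tug1-/-, but not every marker was. Aqp2 carried most of the kidney sum (4.93, 13.2 and 6.48 TPM). Slc12a1, Umod and Slc34a1 of that list, all under 1 TPM, were lower in Tug1-/- than in wild type. Of the Leydig cell markers, Hsd3b1 (107, 112 and 131 TPM) and Cyp11a1 (43.2, 75.5 and 83.0 TPM) were highest in rescue. The 5 germ cell markers summed to 25975, 24595 and 23946 TPM. The part of such tissue in the Hox differences was not tested.

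**Figure D2:**
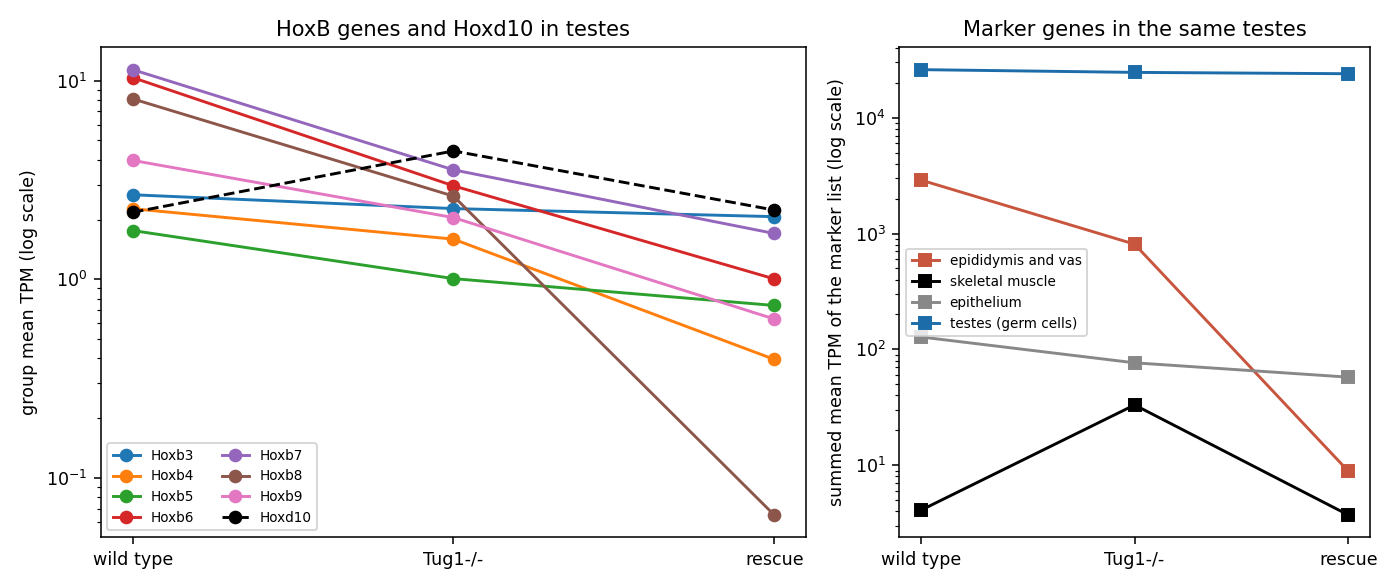
Group mean TPM on a log scale in wild-type (4), Tug1-/- (4) and rescue (3) testes, for 7 HoxB genes and Hoxd10 at left and for the sums of 4 marker lists at right. Hoxb6, Hoxb7, Hoxb8 and Hoxb9 descend from wild type to rescue as the summed epididymis and vas markers do (2898 to 8.86 TPM). Most of that sum in Tug1-/- is Crisp1. Hoxd10 and the skeletal muscle markers (33.1 TPM) are each highest in Tug1-/-. No error bars are drawn because only means are in the tables.

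The rescue comparisons ask whether a Tug1 transgene restores levels. They share libraries with the comparison above and with each other, so their values are only set side by side. Of 13 Hox genes tested between rescue and Tug1-/-, 5 were past 1.5-fold, all lower in rescue (Hoxb6, Hoxb7, Hoxb8, Hoxb9 and Hoxd10), against 2.23% of all genes. Of 15 tested between rescue and wild type, 8 were past 1.5-fold, all lower in rescue (Hoxb4 to Hoxb9, Hoxd4 and Hoxd9), against 5.91% of all genes. Hoxd9 was at 6.03 TPM in wild type, 5.03 TPM in Tug1-/- and 3.36 TPM in rescue. Of the 8 genes past 1.5-fold in Tug1-/-, only Hoxd10 was nearer to wild type in rescue than in Tug1-/-. The other 7 were as low or lower.

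In MEFs, the tissue with the most Hox genes on, the 2 genotypes were close. Of 33 genes tested, Hoxa4 was higher and Hoxd13 lower past 1.5-fold, 2 genes, against 4.33% of all protein-coding genes. The median difference was 0.06 for the Hox genes and 0.04 for all genes. Summed Hox RNA was 520 TPM in wild type against 528 TPM in Tug1-/-. Hoxa4 was at 2.995 TPM in wild type against 5.07 TPM in Tug1-/- (ratio 1.69, counting interval 1.38 to 2.09). Hoxd13, which patterns digits and the genital tubercle, was at 8.65 TPM and 4.92 TPM (ratio 0.569, 0.501 to 0.645).

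The small differences followed position in HoxA. The genes from Hoxa2 to Hoxa9 were higher in Tug1-/- and the 3 from Hoxa10 to Hoxa13 lower, with a rank correlation of paralog number and difference of -0.82 over 11 genes. Hoxa2 had a ratio of 1.30, Hoxa3 of 1.36, Hoxa5 of 1.23 and Hoxa7 of 1.15. Hoxa9 was at 1.05, and Hoxa10, Hoxa11 and Hoxa13 were at 0.869, 0.847 and 0.703. These directions held when differences were centred on the median of all genes and with rescaled TPM. For each of these HoxA genes but Hoxa9 the counting interval left out 1. HoxD was on the lower side from Hoxd8 (ratio 0.833) to Hoxd13. The intervals of Hoxd9 (0.712 to 1.03), Hoxd10 (0.737 to 1.14) and Hoxd11 (0.706 to 1.10) held 1, and those of Hoxd8, Hoxd12 and Hoxd13 did not. Its sum was 34.4 TPM in wild type against 26.5 TPM in Tug1-/-. Hoxd12 was at 1.23 and 0.604 TPM (ratio 0.490, 0.341 to 0.695), and was just outside the call because its mean of both groups was below 1 TPM. HoxB and HoxC had no such slope, with rank correlations of 0.40 over 8 genes and 0.53 over 9. In prostate the rank correlation was 0.17 for HoxA over 8 genes, 0.36 for HoxB over 8 and -0.64 for HoxD over 7. Genes of a cluster overlap and share libraries, so these correlations are descriptions.

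**Figure D3:**
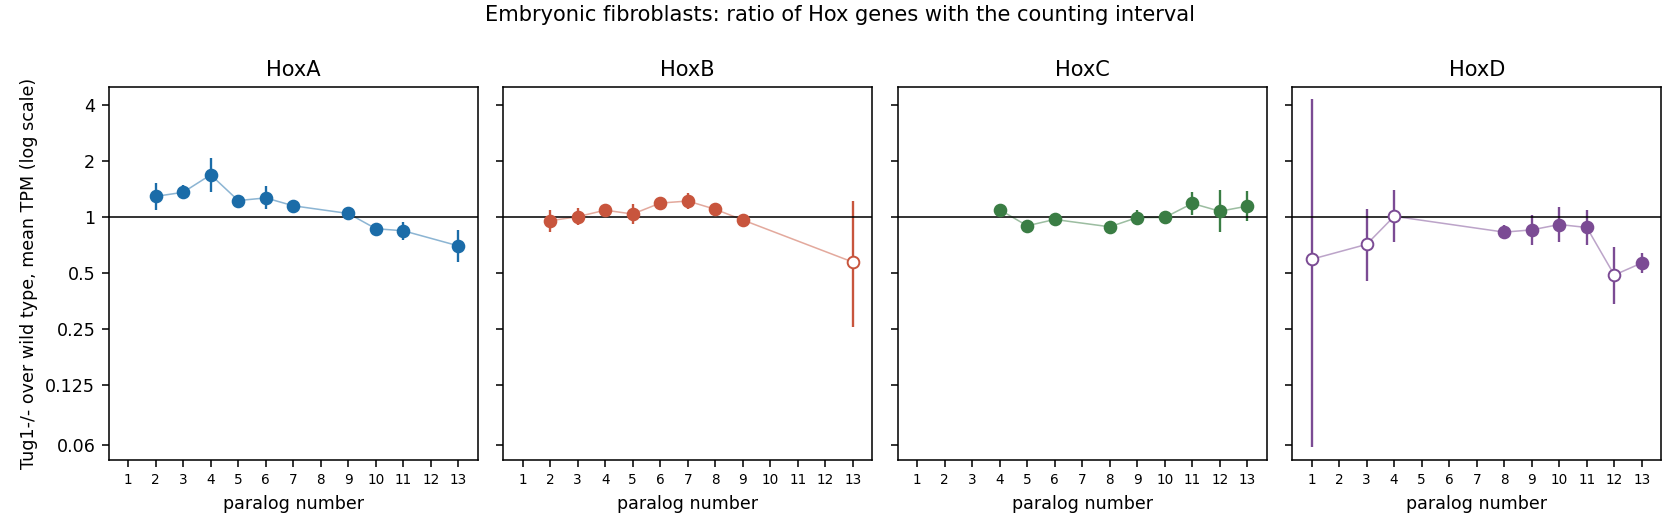
Ratio of Tug1-/- over wild-type mean TPM in MEFs (log axis) for the Hox genes named here by paralog number, in 4 panels for the clusters, with bars for the exact 95% counting interval and open points for genes with a mean under 1 TPM. HoxA steps down from 1.69 at Hoxa4 to 0.703 at Hoxa13, and HoxD ends at 0.490 and 0.569 for Hoxd12 and Hoxd13. The bars hold no spread between embryos.

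Other transcription factors known as Polycomb targets and fibroblast genes were read beside this. Of 27 such factors tested in MEFs, 15 were on the higher side in Tug1-/-, with a median of 0.02. Gata2 was higher past 1.5-fold and 2 were lower, against 4.33% of all genes. The lower ones were Tbx4, a transcription factor of the hindlimb, at 5.08 TPM in wild type against 2.90 TPM in Tug1-/-, and Dlx5, of limb and skeleton, at 2.04 and 0.916 TPM. The 7 fibroblast markers summed to 10833 and 10097 TPM. Their part in the Hox values was not tested.

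In prostate, 1 of 23 Hox genes tested was past 1.5-fold, against 4.37% of all genes. Hoxb5 was at 7.78 TPM in 3 wild-type samples and 4.47 TPM in 2 Tug1-/- samples (ratio 0.574, counting interval 0.504 to 0.653). It overlaps the antisense gene Hoxb5os, at 4.99 and 5.75 TPM. Most other HoxB genes tested were lower too, with ratios of 0.730 for Hoxb3, 0.823 for Hoxb6, 0.881 for Hoxb7, 0.775 for Hoxb9 and 0.951 for Hoxb13, each with an interval below 1. Hoxb8 was higher at 1.35 (1.19 to 1.53), and the interval of Hoxb4 (0.954 to 1.40) held 1. Under the minimum level, Hoxb2 was at 0.251 and 0.728 TPM (ratio 2.90, 1.89 to 4.51) and Hoxd3 at 0.225 and 0.410 TPM (ratio 1.82, 1.15 to 2.88), both higher in Tug1-/-. Of the leading genes, Hoxb13 was at 394.6 and 375.1 TPM, Hoxb9 at 149.0 and 115.5 TPM and Hoxa10 at 69.2 and 67.0 TPM. The posterior genes of HoxA and HoxD had ratios of 0.877 to 1.26, the highest being Hoxd9 at 10.5 and 13.2 TPM (1.14 to 1.39). Secreted proteins of the seminal vesicle, 6 markers, summed to 22281 TPM in wild type against 67084 TPM in Tug1-/-, with Svs2, Svs5 and Pate4 past 1.5-fold and Svs6 (61.2 and 43.1 TPM) and Svs3a (17.6 and 12.1 TPM) on the lower side. The 5 prostate markers summed to 88154 and 80523 TPM, though 3 of the 5 were on the higher side. The 7 stromal markers, all on the higher side, summed to 279 and 359 TPM, and the 6 macrophage markers, of which 3 were past 1.5-fold, to 139 and 208 TPM. Their part in the Hoxb5 value was not tested.

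In spleen, Hoxa2, Hoxa3 and Hoxa5 of anterior HoxA were lower in Tug1-/-. Hoxa2, which patterns the second branchial arch, was at 2.75 TPM in wild type against 1.14 TPM in Tug1-/- (ratio 0.413, 0.319 to 0.532). Hoxa5, used in lung and mesenchyme, was at 6.11 and 3.76 TPM (ratio 0.616, 0.534 to 0.711). These were the 2 of 8 genes tested that were past 1.5-fold, against 6.81% of all genes. Hoxa3, just under the minimum level, was at 0.949 and 0.447 TPM (ratio 0.471, 0.375 to 0.589). Hoxc5 was lower too, at 0.120 and 0.0277 TPM (ratio 0.231, 0.0541 to 0.728) and on 20.2 reads in all. Hoxa4, in the same stretch as Hoxa2 and Hoxa5, had a ratio of 0.794 with an interval that held 1. From Hoxa6 onward the members at 1 TPM or more were level, with ratios of 1.15 for Hoxa6 and 0.957 for Hoxa7. HoxB was level too, at 14.16 and 13.99 TPM in sum, with Hoxb4 at 5.96 and 5.97 TPM. Against the median of all genes, which was itself shifted by -0.105 in spleen, Hoxa2 stayed past 1.5-fold and Hoxa5 did not.

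The noncoding genes at the anterior end of HoxA differed likewise. Hotairm1 was at 3.65 TPM in wild type against 2.10 TPM in Tug1-/- spleen. Gm27477, beside it, was at 4.80 and 2.91 TPM. Other cell types also differed in these samples. The 5 pancreas markers summed to 71.96 TPM in wild type against 7262 TPM in Tug1-/-, the 5 erythroid and progenitor markers to 3903 and 7538 TPM, the 4 liver markers to 21.9 and 0.670 TPM, the 7 stromal markers to 273 and 224 TPM and the 4 spleen lymphocyte markers to 2483 and 1898 TPM. The part of this in the HoxA values was not tested.

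Most listed Hox genes were lower in Tug1-/- heart, at levels under the minimum, the same 3 HoxA genes among them. Hoxa4 was lower as well, at 0.492 TPM in wild type against 0.306 TPM in Tug1-/- (ratio 0.622), with an interval that reached 1. Hoxa2 was at 0.411 TPM in wild type against 0.186 TPM in Tug1-/- (ratio 0.453, 0.257 to 0.776), Hoxa3 at 0.330 and 0.156 TPM (ratio 0.473, 0.340 to 0.653) and Hoxa5 at 0.644 and 0.378 TPM (ratio 0.586, 0.394 to 0.863). Each value rests on few reads, 66.8 in all for Hoxa2 and 180 for Hoxa3. Summed HoxA was 2.52 TPM in wild type against 1.54 TPM in Tug1-/- heart, with HoxB at 2.11 and 1.99 TPM and HoxC at 0.183 and 0.0527 TPM. Intervals below 1 were also found there for Hoxc5 (0.0638 and 0.00680 TPM), Hoxd9 (0.411 and 0.262 TPM, 0.403 to 0.998) and Hoxc4, which was at 0.0486 TPM in wild type and listed at 0 in Tug1-/-. The 4 lymphocyte markers summed to 23.2 and 11.01 TPM there. The 4 skeletal muscle markers, some of which heart muscle also expresses, summed to 1263 and 1377 TPM, with Ckm at 1005 and 1199 TPM, Acta1 at 234 and 177 TPM, Mylpf at 20.2 and 1.34 TPM and Myh4 at 4.24 and 0 TPM. Their part was not tested.

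Across tissues, direction was tallied for each member. Members named here were picked from the 39 for one-sided tallies. Hoxb2 was lower in Tug1-/- in 6 of the 7 tissues that listed it, with prostate the exception, and Hoxd1 in 4 of 4. Hoxd1 reached at most 0.432 TPM, and its intervals in eyes (0.0313 to 1.77) and MEFs (0.0585 to 4.30) held 1. Apart from prostate, no Hoxb2 interval left out 1. On the other side, Hoxa7, Hoxb4 and Hoxd8 were higher in Tug1-/- in 6 of 8 tissues, Hoxa3 in 5 of 7 and Hoxa9 in 4 of 5. Intervals of Hoxa7 and Hoxb4 left out 1 only in MEFs, where both were higher. Those of Hoxd8 did so in prostate (higher) and MEFs (lower), and those of Hoxa9 only in prostate (lower). Those of Hoxa3 did so in MEFs (higher), heart and spleen (both lower). Hoxa2 was lower in Tug1-/- in 6 of the 7 tissues that listed it, with ratios of 0.413 in spleen, 0.453 in heart, 0.471 in testes, 0.708 in liver, 0.722 in brain and 0.725 in prostate, and higher in MEFs at 1.30. The counting intervals of spleen, heart and MEFs left out 1. Those of liver (0.350 to 1.40) and prostate (0.389 to 1.31) held 1, and brain and testes have none. The mean of both groups was at least 1 TPM only in spleen and MEFs. Hoxa3 had a ratio of 1.02 in testes, 1.30 in brain and 1.005 in prostate, and Hoxa5 one of 0.460 in testes, 1.45 in brain and 1.06 in prostate. The labels do not say whether several tissues came from one animal.

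**Figure D4:**
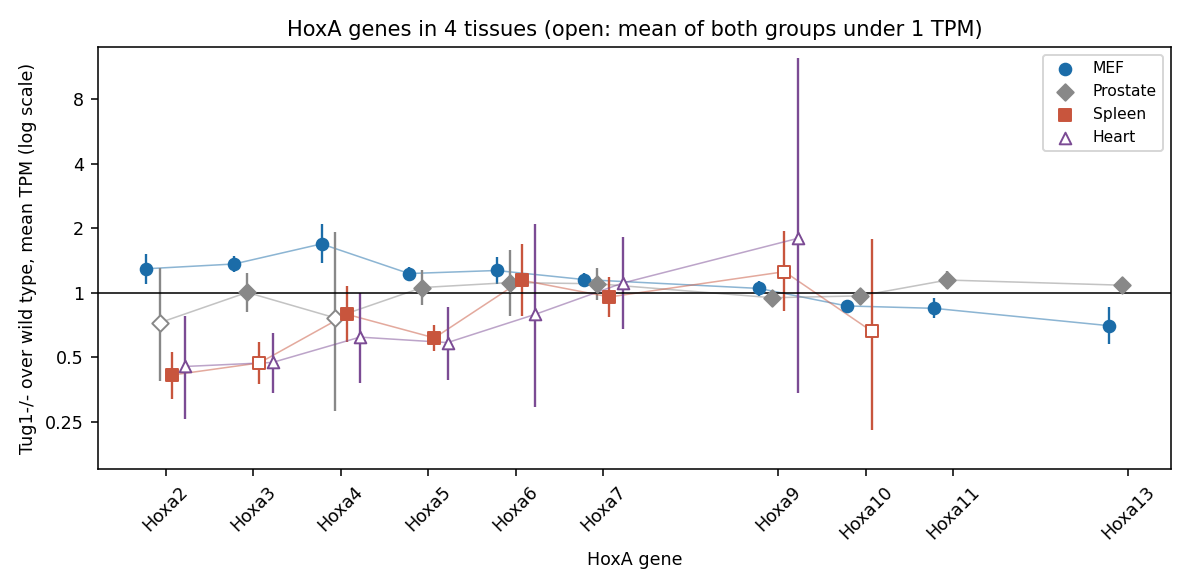
Ratio of Tug1-/- over wild-type mean TPM (log axis) for HoxA genes from Hoxa2 to Hoxa13 in MEFs, prostate, spleen and heart, with bars for the exact 95% counting interval and open points for genes with a mean under 1 TPM. Hoxa2, Hoxa3 and Hoxa5 lie between 0.413 and 0.616 in spleen and heart and between 1.23 and 1.36 in MEFs.

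Brain, eyes and liver had no Hox gene past 1.5-fold. In brain 7 genes were tested, against 1.26% of all genes past 1.5-fold, and the largest difference was that of Hoxa5, at 4.93 TPM in wild type against 7.13 TPM in Tug1-/-. In eyes, heart and liver 0 Hox genes reached the minimum of 1 TPM, so none could be called, where 4.06%, 2.13% and 4.10% of all genes were past 1.5-fold. In eyes and liver no listed member had a counting interval that left out 1. Hoxd8 in eyes was at 0.494 and 0.681 TPM (0.967 to 1.98) and Hoxb4 in liver at 0.458 and 0.624 TPM (0.973 to 1.92). The median of all genes in heart was 0.106, and it moved by -0.128 when TPM was rescaled.

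**Figure D5:**
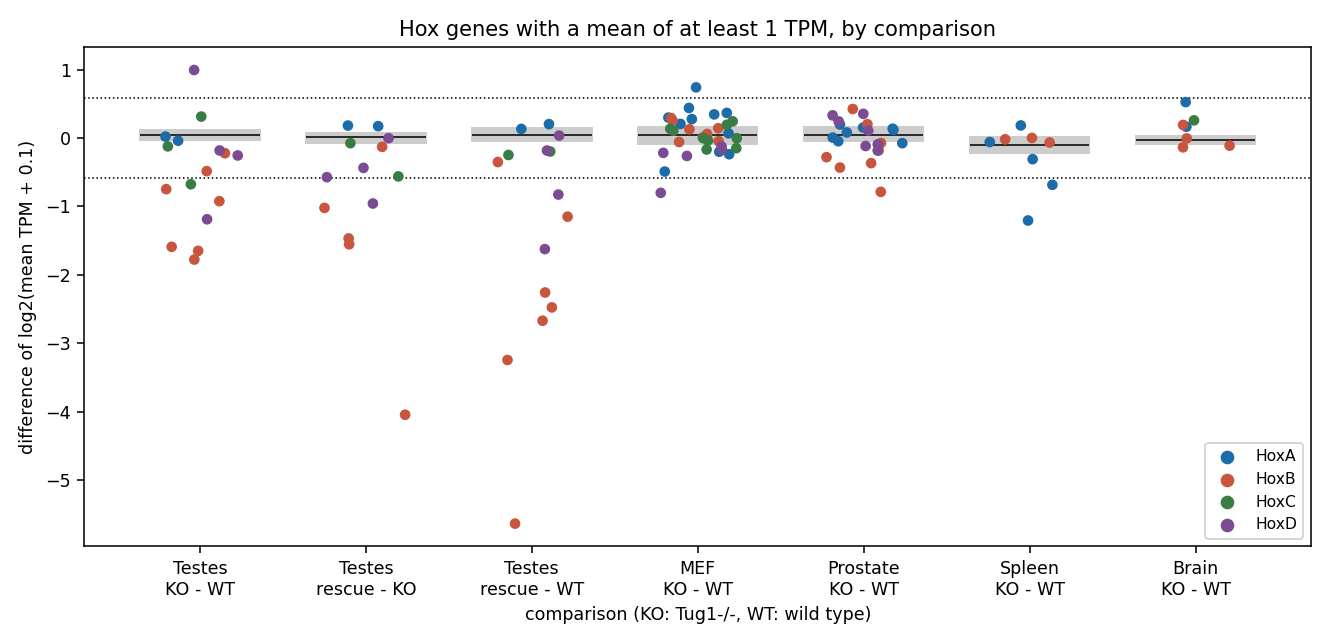
Difference of log2(mean TPM + 0.1) for each Hox gene with a mean of at least 1 TPM, coloured by cluster, in 7 comparisons. Grey boxes span the interquartile range of all protein-coding genes, the line is their median and dotted lines mark 1.5-fold. HoxB genes in testes reach -1.78 in Tug1-/- and -5.63 in rescue, while most genes of MEFs, prostate, spleen and brain stay inside the dotted lines.

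The genes that read or set Hox expression were looked at beside the share of all genes past 1.5-fold, 1.26% to 6.81% over the 10 comparisons. At that share, lists this short would hold few calls or none. Of the 9 Hox cofactors (the Pbx, Meis and Pknox families, which bind DNA with Hox proteins), 0 were past 1.5-fold in the 10 comparisons, and their medians lay between -0.18 and 0.11. Of the 5 Trithorax genes 0 were past 1.5-fold, with medians of -0.16 to 0.30. Of the 11 PRC2 genes, Phf19, which helps recruit the complex, was higher in MEFs (2.35 and 3.70 TPM), and no other was past 1.5-fold.

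Genes upstream of Hox expression and outside the clusters were read too. Among 12 ParaHox genes and regulators of retinoic acid and Gdf11, Cyp26b1, which breaks down retinoic acid, was lower in Tug1-/- in eyes (18.2 and 10.8 TPM), heart (4.77 and 2.73 TPM) and liver (3.99 and 1.60 TPM). It was 1 of 7 genes tested in eyes, 1 of 5 in heart and 1 of 4 in liver, against 4.06%, 2.13% and 4.10% of all genes. Of 8 neighbours flanking the clusters, 6 were tested between rescue and wild-type testes. Skap1, beyond the Hoxb1 end of HoxB, was the 1 past 1.5-fold (1.47 TPM in wild type and 0.819 TPM in rescue), against 5.91% of all genes. No neighbour was past 1.5-fold in a Tug1-/- comparison. Ttll6, beyond the Hoxb13 end, was at 170 TPM in wild type, 171 TPM in Tug1-/- and 165 TPM in rescue testes. Of 34 noncoding genes inside the clusters, 13 were tested in Tug1-/- testes, with 1 higher and 3 lower, the latter Gm53, Mir196a-1 and Gm11536, all in HoxB. The share of all protein-coding genes was 4.78% there. In spleen 3 of 9 were lower, Hotairm1, Gm27477 and Hoxb5os (1.49 and 0.905 TPM), against 6.81%. In MEFs 2 of 16 were higher, Gm27535 (0.648 and 1.99 TPM) and Mir615 (0.860 and 1.45 TPM), against 4.33%. In brain 1 of 3 was higher, Gm11536 (0.607 and 1.54 TPM), against 1.26%, the gene that was lower in testes. In prostate 0 of 16 and in heart 0 of 1 were past 1.5-fold, against 4.37% and 2.13%.

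Other transcription factors known as Polycomb targets were read in the same way. Of 42 such genes, 23 were tested in Tug1-/- testes with a median of 0.06. Pax8, of the ducts and kidney, was at 3.51 TPM in wild type, 0.827 TPM in Tug1-/- and 0.115 TPM in rescue. Tbx2 was at 5.36, 3.19 and 2.22 TPM. They had the order of HoxB and of the summed epididymis and vas markers, and were the 2 past 1.5-fold in Tug1-/-, against 4.78% of all protein-coding genes. In MEFs, 1 of 27 tested was higher (Gata2, 5.06 and 8.01 TPM) and 2 lower (Dlx5 and Tbx4), against 4.33% of all genes. In spleen 1 of 11 was lower (Foxf1, a factor of splenic mesenchyme, 3.32 and 2.07 TPM), against 6.81% of all genes. The median of the 11 was -0.37, that of all genes -0.105, and 1 of the 11 was on the higher side. In eyes 1 of 23 was higher (Tbx15, 44.1 and 81.6 TPM), against 4.06%. In heart 2 of 21 were lower (Irx5 at 4.03 and 2.65 TPM, Pax5 at 2.14 and 0.903 TPM), against 2.13%, and in liver 1 of 7 (Tbx3, 9.15 and 4.69 TPM), against 4.10%. In prostate 0 of 13 and in brain 0 of 25 were past 1.5-fold, against 4.37% and 1.26%. In rescue testes 4 of 23 were lower than in Tug1-/- (Gata3, Tbx3, Six2 and Pax2), against 2.23%, and 6 of 24 lower than in wild type (these 4, Pax8 and Tbx2), against 5.91%.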

How the data were processed

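RNA of male mice was sequenced with an unstranded kit for polyadenylated RNA (TruSeq RNA v2). As the study's methods state, the authors aligned reads to GRCm38 (mm10 in the submitters' processing notes, which also name CASAVA 1.8.2) with STAR and GENCODE annotation, counted uniquely mapped reads with featureCounts, and removed genes with few reads in every replicate. The authors deposited 1 mean TPM per group. In the table of the other 7 tissues they also deposited a mean read count per gene scaled for library size, a normalised signal. Columns of the authors' own fold changes and p-values were not used. Values of individual samples are not among the columns. Depth of each library is therefore unknown, no mean has an SD, and no test was run.

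From the means, differences of log2(TPM + 0.1) were computed with Python 3.11.15, pandas 2.3.3 and SciPy 1.17.1. The call rule was a 1.5-fold difference with a mean of both groups of at least 1 TPM over protein-coding genes. Reads behind a value were taken as the mean normalised count times the number of libraries, split by TPM, and an exact Clopper-Pearson 95% interval was computed for counting error only (not in testes or brain). It covers no biological spread. Both steps were tested on simulated data. Sequences came from RefSeq and GENCODE tables of GRCm38. Named genes were all Hox genes past 1.5-fold, the 3 highest per tissue and the ends of each expressed span. Other genes were named from gene and marker lists when past 1.5-fold or beside a result they move with. Genes below the minimum that are given with values were chosen after their values were seen. The members and lists were chosen with earlier results of these data known. Tried alternatives were other pseudocounts, minimum levels, folds, centring and a rescaled TPM. Results on some items are not reported here.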

Additional observations from a re-analysis of the deposited data

How the results depend on the processing

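No paired analysis was possible because the tables hold means of groups and no values of single samples. For the same reason leaving out each replicate was not run. Of the counts and medians compared over the alternatives, 114 stayed close to the value given above (counts within 1.5 times, medians within 0.05) and 56 did not. The cause of a move was not tested beyond the construction of each alternative. With no minimum level, the genes past 1.5-fold became 18 in Tug1-/- testes, 12 between rescue and Tug1-/-, 20 between rescue and wild type, 4 each in brain, heart and prostate, 5 in spleen and 1 in liver. With a minimum of 0.5 TPM they became 1 in brain and 1 in heart. With 2 TPM they became 1 in spleen, 2 between rescue and Tug1-/- and 5 between rescue and wild type. With the smaller fold threshold tried they became 1 in brain, 6 in MEFs, 6 in prostate and 8 between rescue and Tug1-/-. With 2-fold they became 4 in Tug1-/- testes (Hoxb6, Hoxb7, Hoxb8 and Hoxd4), 1 in spleen (Hoxa2), and 0 in both prostate and MEFs. With a pseudocount of 1 TPM, and with centring on the median of all genes, 1 was left in spleen (Hoxa2). With TPM rescaled without mitochondrial genes and the 50 most abundant genes, 2 were called in heart (Hoxa4 and Hoxa5, both lower). With a mean normalised count of at least 10 in place of the TPM minimum, 3 were called in heart (Hoxa2, Hoxa3 and Hoxa5, lower) and 3 in prostate (Hoxb2 and Hoxd3 higher, Hoxb5 lower). Members at or over the limit in wild type became 3 in heart, 1 in liver and 13 in spleen at 0.5 TPM, 3 in brain and 4 in spleen at 2 TPM, and 7 in heart and 1 in liver with rescaled TPM. The median difference of the Hox genes in Tug1-/- testes became -0.2765 with a pseudocount of 1 TPM, -0.2382, -0.5888 and -0.201 with minimum levels of 0.5 TPM, 2 TPM and none, and -0.2623 with rescaled TPM. Between rescue and Tug1-/- it became -0.3769, -0.4114, -0.3505 and -0.3912 under the first 4 of these, and between rescue and wild type -0.6668 with that pseudocount, -0.5939 at 0.5 TPM, -0.5146 with no minimum and -0.7672 rescaled. In brain it became 0.1138 with that pseudocount, 0.0794, 0.2582 and -0.0059 with the 3 minimum levels and 0.0895 rescaled. In MEFs it became 0.0048 with no minimum and -0.0104 rescaled, in prostate 0.095 at 2 TPM and 0.0811 with no minimum, and in spleen 0.0422 when centred. The sign of the median thus turned in brain, MEFs and spleen under 1 alternative each, and in prostate when centred (-0.0388). Centring turned the sign of Hoxa3 in testes and prostate, Hoxb5 in brain, Hoxb3 in MEFs, Hoxa7, Hoxb6 and Hoxb7 in spleen and Hoxd10 between rescue and wild type, all close to 0. Depth limits the low genes, and the spread between animals limits every value here and cannot be had from these means.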
